A study of Homo sapiens with 10 samples.

Results

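VEGFA, VEGFB, PDGFA and PDGFB, the classical ligands of the VEGF and PDGF families, were followed in newly made and total RNA of 22RV1, a widely used cell line of castration-resistant prostate cancer (CRPC). They are 4 of the 31015 genes with 3′ UTR intervals in the data. The genes were chosen from a list of angiogenic factors, with earlier results of these libraries known, and by their T>C reads, all reads and the share of one in the other, so their own values are a description without tests. 10 libraries were analysed, 2 per group, and every group holds the same cell line with no engineered change stated in the labels. Control cells had no treatment. The other groups received, for 4 h, 20 μM SRPIN340, an inhibitor of the splicing kinase SRPK1, or 50 μM Endovion, the clinical compound that the study examined as an SRPK1 inhibitor, or THZ531, an inhibitor of the transcription kinase CDK12, or THZ531 and Endovion together. The dose of THZ531 is 100 nM in the methods and 150 nM in the series description. All cells were given 4-thiouridine for the last 10 min. RNA that took it up is read with C in place of T after alkylation, so T>C reads are taken to mark nascent RNA. No library without 4-thiouridine is among the 10, so the number of T>C reads that do not come from the label was not measured. No source used here says that the 2 libraries of a group came from separate cultures, and p-values therefore measure only the spread between these libraries.

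VEGFA is the main driver of new blood vessel growth and acts on endothelial cells through FLT1, KDR and the co-receptor NRP1. VEGFB binds FLT1 and has been linked to lipid handling and vessel survival. PDGFA and PDGFB form the dimers that attract fibroblasts and the mural cells around vessels, through PDGFRA and PDGFRB. VEGFA is transcribed under HIF1A when oxygen is low, its mRNA is short-lived, and SRPK1, through the splicing factor SRSF1, steers the choice between the exon ends 8a and 8b of its transcript. Tumour epithelium commonly makes these ligands, whereas their tyrosine kinase receptors lie mostly on vessel and stromal cells.

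The counts come from the 3′ ends of mRNAs, so the first question is what each interval can tell apart. In hg38, VEGFA lies at chr6:43770184-43786487 on the plus strand, VEGFB at chr11:64234584-64239264 on the plus strand, PDGFA at chr7:497258-520296 on the minus strand and PDGFB at chr22:39223359-39244982 on the minus strand. No interval of another gene and no other annotated gene overlapped the 3′ UTR intervals used for them. The coding ends of VEGFA are shown because SRPK1 acts on this choice, with the stop codon in capitals. They were read from hg38, plus strand:
VEGFA 8a end, chr6:43784542-43784562: tgtgacaagccgaggcggTGA
VEGFA 8b end, chr6:43784608-43784628: tctctcaccaggaaagacTGA
The stop codons lie 66 bases apart, and the 1925-base interval that held the VEGFA reads begins right after the first and contains the second. The 387 bases next to the 8a stop held 141 of the 16476 reads of this interval over all libraries, which is 0.856%. The 8a and 8b forms share the rest of the 3′ UTR, and these 3′ end reads therefore did not separate them.

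PDGFB has 2 annotated ends in its last exon. A 379-base interval at chr22:39224935-39225313 is nested at the start of a 1955-base interval at chr22:39223359-39225313, and reads could be divided into a proximal part and a distal remainder of 1576 bases. The last 30 transcribed bases before each end, which mark where the annotated forms stop, were read from the minus strand of hg38:
PDGFB shorter form, chr22:39224935-39224964: gtcctgaggagccctgaggacctctcagca
PDGFB longer form, chr22:39223359-39223388: ctggcagtgacgagagatgggtttctgcag
Neither end had the poly(A) signal AATAAA or its variant ATTAAA, searched on the transcribed strand, in its last 50 bases, and neither had VEGFB. Over 13604 genes with at least 100 reads, AATAAA stood in this window in 62.7% and ATTAAA in 18.3%. VEGFA and PDGFA carried ATTAAA, shown here in capitals with its surroundings because it places their annotated ends:
VEGFA end, plus strand, chr6:43786449-43786478: aaagcattttgtATTAAAgaatttaattct
PDGFA end, minus strand, chr7:497268-497297: tgttgatccaaaATTAAAaaaaaaaatacc
The motif ATTTA, the core of AU-rich elements that shorten the life of many growth factor mRNAs, was counted on the transcribed strand with overlaps allowed. It occurred 10 times in the 3′ UTR interval of VEGFA, as often or more in only 14.1% of the 13604 genes, 5 times in PDGFB, 3 times in PDGFA and 0 times in VEGFB. The median over all genes was 2.

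The libraries had between 35517462 and 53592904 mapped reads and between 1011598 and 1576121 T>C reads on genes, and T>C reads made up between 5.04% and 5.70% of the reads on genes. Levels are given as CPM, the count of a gene relative to the library total, scaled with TMM factors, of T>C reads for nascent RNA and of all reads for total RNA, and are compared within a gene only. The label of the cells was checked on fixed markers. All 10 prostate epithelial markers had reads in every library, and they summed to between 1394 and 1631 CPM. Of 6 endothelial markers, 4 were at 0 in all libraries, and the summed level of the list was at most 0.0953 CPM. Of 6 markers of fibroblasts and mural cells, 3 also had reads in every library, and the list summed to between 4.42 and 6.53 CPM.

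VEGFA was higher in every treated library than in both control libraries, in nascent and in total RNA. The control libraries had 75 and 64 T>C reads of VEGFA, or 48.3 and 51.4 CPM. With SRPIN340 the libraries had 108 and 62.6 CPM, with Endovion 98.2 and 69.3 CPM, with THZ531 105 and 106 CPM, and with THZ531 and Endovion 140 and 143 CPM. Both combination libraries lay above both THZ531 libraries, with a log2 fold change of 0.42 (SE 0.25) between these groups. Both THZ531 libraries lay above both Endovion libraries, whereas SRPIN340 overlapped both THZ531 and Endovion in nascent VEGFA. For such gaps between groups of 2 libraries, the share over all genes was not counted, and nothing is read from them. The log2 fold changes against control in nascent RNA were 0.78 (SE 0.27) with SRPIN340, 0.76 (SE 0.27) with Endovion, 1.08 (SE 0.27) with THZ531 and 1.503 (SE 0.26) with both. The SRPIN340 libraries differed most, and without SRPIN340 replicate 1 the nascent value for SRPIN340 was 0.33.

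Total VEGFA had the same order of groups. Its level was 40.0 ± 11.4 CPM (SD, n = 2) in control cells, 66.3 ± 2.296 with SRPIN340, 64.8 ± 2.41 with Endovion, 80.8 ± 9.26 with THZ531 and 91.8 ± 11.9 with the combination. The 2 control libraries differed, at 48.0 and 31.9 CPM. Both THZ531 groups lay above both single SRPK1 inhibitor groups, and the members of each of these pairs overlapped. The log2 fold changes in total RNA were 0.73 (SE 0.17), 0.69 (SE 0.17), 1.01 (SE 0.17) and 1.20 (SE 0.17) for SRPIN340, Endovion, THZ531 and the combination. VEGFA thus belonged to the 6.75% of 9946 genes in nascent RNA, and the 15.1% of 14690 genes in total RNA, whose 8 treated libraries all lay above both controls. These shares are background for a pattern on which the genes were chosen, and nothing is read from them.

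**Figure D1:**
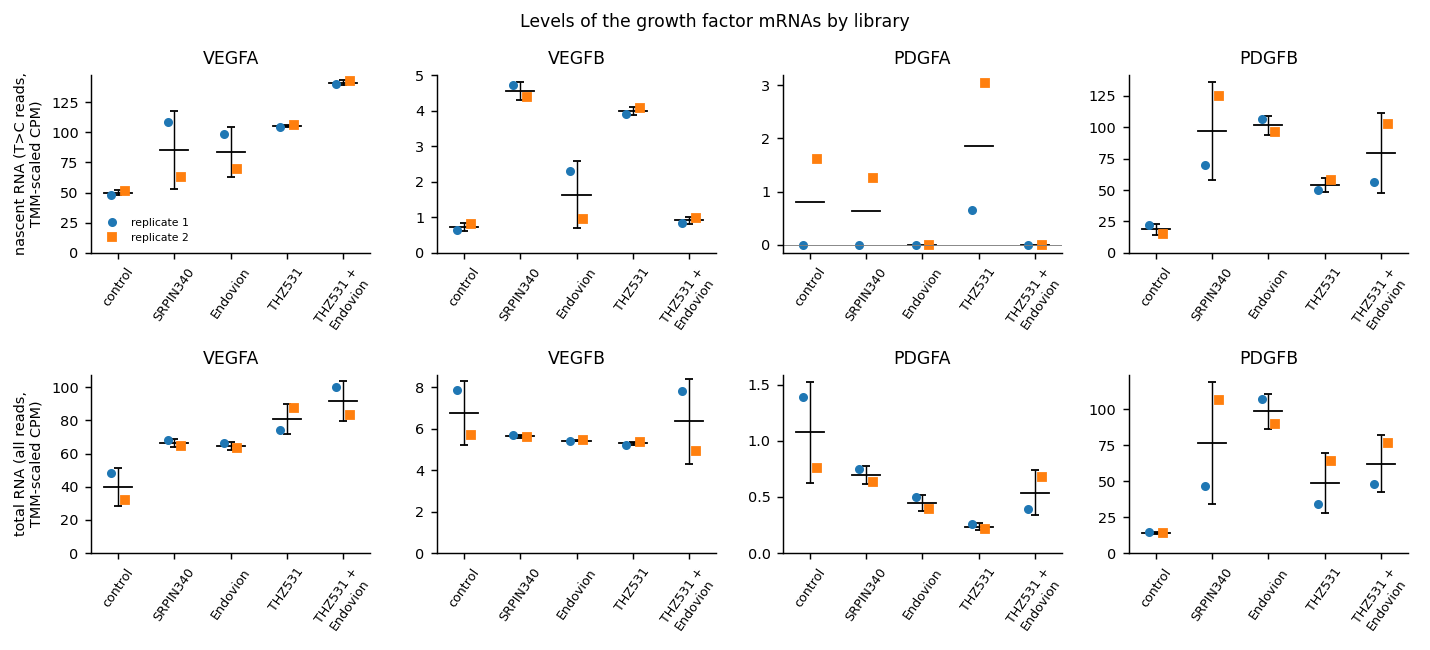
Level of each growth factor mRNA by group, in nascent RNA (top, T>C reads) and total RNA (bottom, all reads), in CPM scaled with TMM factors. Circles are replicate 1, squares replicate 2, bars the mean and whiskers the SD (n = 2, not drawn for nascent PDGFA, which had between 0 and 3 T>C reads per library). VEGFA and PDGFB lie above both control libraries in all 8 treated libraries. PDGFA, which had few reads, lies below them in total RNA, and total VEGFB lies in a narrow range.

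PDGFB differed more from control than VEGFA in nascent RNA, and the 4 treatments share the same 2 control libraries. It had 34 and 19 T>C reads in the controls, or 21.9 and 15.2 CPM. The treated libraries had 69.7 and 125 CPM with SRPIN340, 107 and 96.2 CPM with Endovion, 50.1 and 58.0 CPM with THZ531, and 56.8 and 102 CPM with THZ531 and Endovion. All 8 treated libraries were above both controls, and each treated group overlapped the next in the order Endovion, SRPIN340, combination and THZ531. The log2 fold changes in nascent RNA were 2.37 (SE 0.33) with SRPIN340, 2.43 (SE 0.33) with Endovion, 1.51 (SE 0.34) with THZ531 and 2.07 (SE 0.34) with both agents.

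Total PDGFB followed the same order. Its control libraries had 14.7 and 13.6 CPM, close together, while SRPIN340 gave 46.4 and 106 CPM. Endovion gave 107 and 89.9 CPM, THZ531 34.1 and 63.7 CPM, and the combination 48.0 and 76.2 CPM. The log2 fold changes were 2.43 (SE 0.53), 2.80 (SE 0.53), 1.78 (SE 0.52) and 2.13 (SE 0.52) in the order SRPIN340, Endovion, THZ531 and combination. Both THZ531 libraries were thus above both controls, but both libraries of THZ531 with Endovion were below both Endovion libraries. The log2 fold change of the combination against Endovion was -0.67 (SE 0.49). How many of all genes show this pattern was not counted, and nothing is read from it. The effect of the pair differed from the sum of the single effects by a log2 value of -2.45 (SE 0.71) in total and -1.87 (SE 0.45) in nascent RNA. For VEGFA the same quantity was -0.51 (SE 0.24) in total and -0.33 (SE 0.37) in nascent RNA. SRPIN340 and Endovion were given at different doses, and their values are set side by side only.

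The higher counts of PDGFB lay in the distal remainder of the 3′ UTR. In control cells the proximal part held 141 of 412 reads and 212 of 324 reads, or 34.2% (exact 95% binomial interval 29.6 to 39.0) and 65.4% (60.0 to 70.6). The intervals of these 2 control libraries did not overlap. Such intervals cover counting error only, with every read taken as a separate molecule. In the treated libraries the proximal share was 15.2% and 5.02% with SRPIN340, 5.58% and 6.99% with Endovion, 8.98% and 6.65% with THZ531, and 8.13% and 5.08% with THZ531 and Endovion. All 8 shares were below both control shares.

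The 2 parts differed in level as well as in share. The distal level was 7.19 ± 3.50 CPM (SD, n = 2) in control cells and 70.2 ± 43.5 with SRPIN340, 92.3 ± 12.3 with Endovion, 45.2 ± 20.1 with THZ531 and 58.2 ± 20.0 with the combination. These means were 9.76, 12.8, 6.29 and 8.10 times that of control. The proximal level was 6.97 ± 2.75 CPM in control cells, 6.20 ± 1.22 with SRPIN340, 6.12 ± 0.220 with Endovion, 3.65 ± 0.831 with THZ531 and 3.89 ± 0.0224 with the combination. The proximal means with SRPIN340 and Endovion lay within the range of the controls, and those with THZ531, alone or combined, were 0.523 and 0.558 times that of control.

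T>C reads of PDGFB showed the same division on smaller counts. The proximal part held 7 of 34 and 15 of 19 T>C reads in the controls. It held 8 of 103 and 13 of 199 with SRPIN340, 7 of 139 and 8 of 100 with Endovion, 5 of 77 and 3 of 57 with THZ531, and 2 of 67 and 0 of 104 with the combination. A count of 0 of 104 allows a share of up to 2.88%, taken as 3 counts. The position of a read within the distal 1576 bases is not held in the tables, so the end that these reads came from was not determined.

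Such a pattern was compared with 2702 genes that have a shorter interval nested in the same way, with at least 200 bases in each part and 20 reads per library. The proximal share was below both controls in all 8 treated libraries in 8.7% of them, 235 genes, and above both in 298. The mean proximal share of the median gene was 0.0558 percentage points higher in treated than in control libraries. For PDGFB it was 49.8% in control and 7.71% in treated libraries, 42.1 percentage points lower. A fall of this size or more was found in 3 of the 2702 genes, PDGFB included, and rises of this size were not counted. All reads of PDGFB enter its proximal share, so this share is not independent of the values on which PDGFB was chosen.

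**Figure D2:**
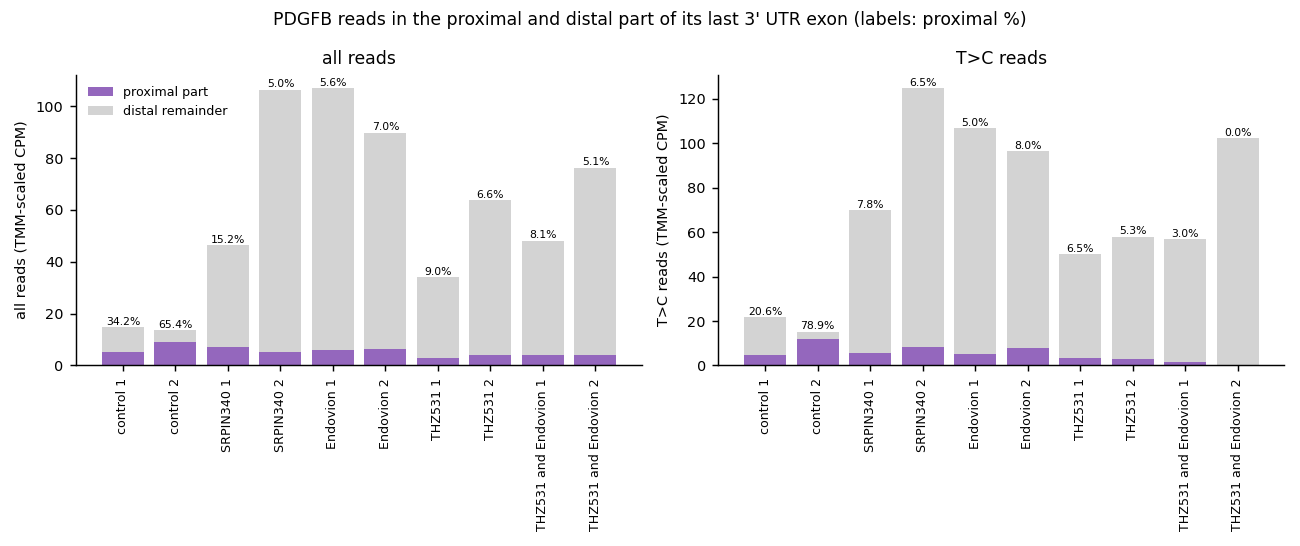
PDGFB in each library, as CPM scaled with TMM factors of all reads (left) and of T>C reads (right), divided into the proximal part of the last 3′ UTR exon (purple, 379 bases) and the distal remainder (grey, 1576 bases). The label above each bar is the proximal share, which is 34.2% and 65.4% of all reads in the control libraries and between 5.02% and 15.2% in the treated ones.

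VEGFB was steady in total RNA and hardly labelled in control cells. Its total level was 6.78 ± 1.56 CPM (SD, n = 2) in control cells, 5.64 ± 0.0664 with SRPIN340, 5.44 ± 0.00477 with Endovion, 5.30 ± 0.0894 with THZ531 and 6.36 ± 2.04 with the combination. The log2 fold changes lay between -0.36 (SE 0.26) and -0.09 (SE 0.26), and 6 of 8 treated libraries were below both controls. VEGFB did not pass the low-count filter in nascent RNA. It had 1 T>C read in each control library, of 221 and 135 reads. There were 7 and 7 T>C reads with SRPIN340, 6 and 4 with THZ531, 3 and 1 with Endovion, and 1 and 1 with the combination. The SRPIN340 and THZ531 counts were above those of both controls. With Endovion, alone or combined, 3 of the 4 libraries had a single T>C read, as the controls did. How many of all genes have such a gap was not counted, and nothing is read from these few reads.

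PDGFA was scarce. The 10 libraries held between 4 and 39 reads each. There were 39 and 18 reads in the controls, 20 and 20 with SRPIN340, 13 and 8 with Endovion, 7 and 4 with THZ531, and 9 and 13 with the combination. On the CPM scale all 8 treated libraries were below both controls. The margin was narrow for SRPIN340 replicate 1, at 0.748 against 0.757 CPM in control replicate 2. The share of all genes with all 8 treated libraries below both controls was not counted, and nothing is read from this pattern. The log2 fold changes in total RNA were -0.64 (SE 0.60) with SRPIN340, -1.26 (SE 0.64) with Endovion, -2.15 (SE 0.69) with THZ531 and -1.01 (SE 0.63) with the combination. T>C reads numbered 8 over all 10 libraries, and 4 of these fell in the THZ531 libraries. In the Endovion and combination libraries there were 0 T>C reads of PDGFA, and a count of 0 of 8 reads, the shallowest of them, allows by the same rule a share of up to 37.5%, so that nascent PDGFA could not be resolved at this depth.

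The share of reads with a label grows with the turnover of an mRNA, since a short pulse marks a larger part of a short-lived pool. T>C reads that do not come from the label add to this share by an unknown amount. In control cells, pooled over both libraries, T>C reads made up 6.60% of VEGFA reads, 7.20% of PDGFB reads and 0.562% of VEGFB reads. Of 9778 genes with at least 100 reads in both control libraries, 69.4% had a lower share than VEGFA, 73.7% a lower share than PDGFB and only 0.583% a lower share than VEGFB. The median gene stood at 4.83%. Counted as conversions per covered T, which allows for the different T content of the 3′ UTRs, VEGFA had 0.492%, above 86.5% of genes. The 2 control libraries differed in this value, at 0.356% and 0.740%. PDGFB had 0.308%, above 68.9% of genes, and VEGFB 0.0275%, above 0.695%. The VEGFB value rests on 1 conversion in each control library.

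The labelled shares of VEGFA overlapped between groups that were next to each other in order. The mean share was 7.0% ± 2.03 (SD, n = 2) in control cells, 6.86% ± 2.76 with SRPIN340, 6.51% ± 1.22 with Endovion, 7.19% ± 1.14 with THZ531 and 8.16% ± 1.33 with the combination, without any gap between neighbouring groups. The share of PDGFB was 7.06% ± 1.69 in control cells and 7.12% ± 1.66, 5.23% ± 0.383, 6.57% ± 2.50 and 6.63% ± 0.721 with SRPIN340, Endovion, THZ531 and the combination. Endovion was the only treatment with both PDGFB shares, 4.96% and 5.50%, below both control shares, 8.25% and 5.86%. The exact 95% intervals of Endovion replicate 2 (4.50 to 6.65) and control replicate 2 (3.57 to 9.01) overlapped. Over all genes, too, T>C reads made up 5.06% and 5.17% with Endovion, beside 5.70% and 5.63% in the controls. How many genes have such a gap was not counted, and nothing is read from it. For both genes the fold changes of nascent and total RNA were of similar size. VEGFB had 0.597% ± 0.204 in control cells, 4.29% ± 0.444 with SRPIN340, 4.11% ± 0.159 with THZ531, 1.51% ± 0.851 with Endovion and 0.813% ± 0.355 with the combination. The exact 95% intervals of single libraries, 1.87 to 9.26 for SRPIN340 replicate 1 against 0.0115 to 2.50 for control replicate 1, overlapped.

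**Figure D3:**
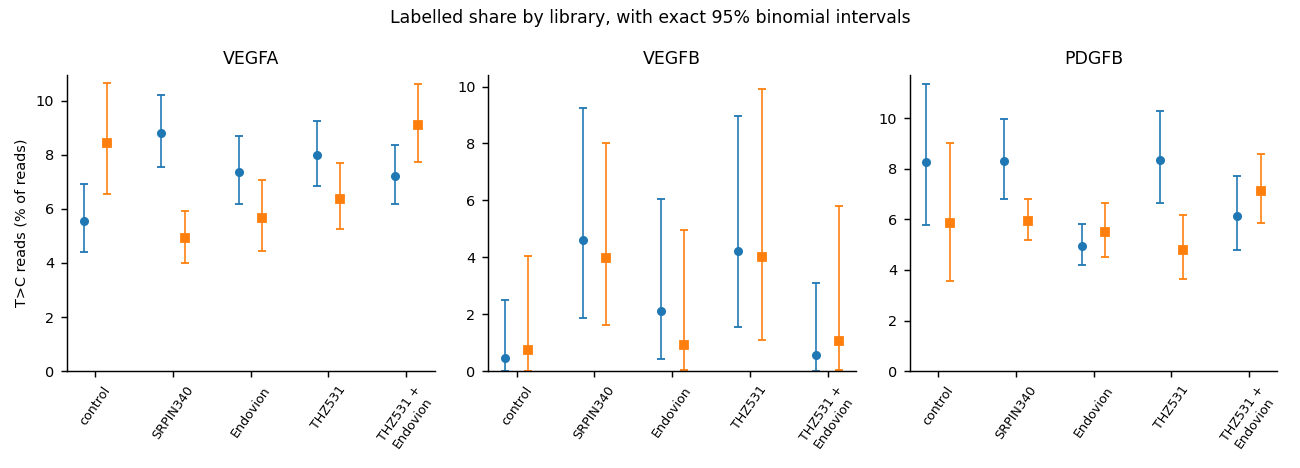
Labelled share, T>C reads as a percent of all reads of the gene, for VEGFA, VEGFB and PDGFB in each library (circles replicate 1, squares replicate 2), with exact 95% binomial intervals that cover counting error only. The VEGFA and PDGFB shares lie between 4.80% and 9.10% in all groups, and VEGFB lies below 1% in both control libraries and between 3.98% and 4.61% with SRPIN340 and with THZ531.

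The genes whose nascent levels most resembled each ligand were named by Pearson's r of log2 CPM over the 10 libraries, among 4093 genes with a mean of at least 50 T>C reads. For VEGFA these were RNPS1 (r = 0.93), a splicing factor, TWF1 (r = 0.92), an actin-binding protein, and TMEM30A (r = 0.91), a subunit of lipid flippases. For PDGFB they were CCT4 (r = 0.96), a chaperonin subunit, UACA (r = 0.95) and COPS7A (r = 0.95), a subunit of the COP9 signalosome. The libraries of a group share their treatment, and these values are given as a description only.

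The other genes of both pathways were taken from 7 lists of 91 genes without the 4 ligands, and were called by the quasi-likelihood test of edgeR at a Benjamini-Hochberg adjusted p under 0.05 over all genes. In nascent RNA 49 of them passed the low-count filter. SRPIN340 and Endovion each raised 1 gene and lowered 0, where 1.04% and 2.66% of all 9946 genes were called. THZ531 raised 3 and lowered 1, and the combination raised 5 and lowered 1, where 7.46% and 8.1% of all genes were called. The median log2 fold changes of the 49 genes were 0.10, 0.07, 0.32 and 0.13 for SRPIN340, Endovion, THZ531 and the combination, beside -0.012, -0.014, -0.016 and -0.0066 over all genes.

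Of the other ligands and the receptors, none was called in nascent RNA. PDGFC, a ligand of PDGFRA, was the only other ligand with enough T>C reads, with 39 and 36 in control cells and between 12 and 29 in treated libraries. Its nascent log2 fold changes lay between -0.91 (SE 0.50, adjusted p = 0.43) with Endovion and -0.54 (SE 0.48, adjusted p = 0.76) with SRPIN340. NRP1, the co-receptor of VEGFA, was the only receptor tested, with 49 and 60 T>C reads in the controls and 19 and 23 with THZ531, a log2 fold change of -1.19 (SE 0.44, adjusted p = 0.084). NRP2, VEGFC and PDGFRL had between 2 and 27 reads per library, and PDGFRL, a PDGF receptor-like protein, had log2 fold changes in total RNA between -0.72 (SE 0.78, adjusted p = 0.59) and -0.07 (SE 0.73, adjusted p = 0.97). With THZ531 the total log2 fold change was -1.77 (SE 0.99, adjusted p = 0.19) for NRP2, another co-receptor, and 2.03 (SE 1.09, adjusted p = 0.17) for VEGFC, which acts on lymphatic vessels. VEGFD, a ligand of FLT4, had 19 and 10 reads in control cells and 0 and 0 with THZ531 (adjusted p = 0.0096 in total RNA), and 23 and 16 with Endovion. The kinase receptors KDR, FLT1, FLT4, PDGFRA and PDGFRB were too scarce to test, and KDR had 0 reads in all libraries.

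SRPK1 and SRSF1, the kinase and the splicing factor of the VEGFA exon choice, rose in total RNA with Endovion, with THZ531 and with both, and were not called in nascent RNA. SRPK1 had total log2 fold changes of 0.66 (SE 0.19, adjusted p = 0.083) with SRPIN340, 0.68 (SE 0.19, adjusted p = 0.035) with Endovion, 0.59 (SE 0.19, adjusted p = 0.029) with THZ531 and 0.74 (SE 0.19, adjusted p = 0.011) with both. SRSF1 stood at 0.80 (SE 0.20, adjusted p = 0.063), 0.98 (SE 0.20, adjusted p = 0.013), 0.98 (SE 0.20, adjusted p = 0.0042) and 0.94 (SE 0.20, adjusted p = 0.0057) in the same order. The 2 control libraries differed, with 1403 and 719 reads of SRPK1 and 5067 and 2659 reads of SRSF1. They had 27236122 and 23154249 reads on genes, so control replicate 2 was the lower for both genes. How far the fold changes rest on control replicate 2 was not tested for these genes. In nascent RNA SRPK1 lay between 0.32 and 0.46 and SRSF1 between -0.12 and 0.10. Of the 6 genes of this list, THZ531 raised 5 in total RNA and the combination 4, while Endovion raised 2 and lowered 2, where 30.7%, 29% and 11.4% of all genes were called in total RNA.

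The hypoxia list held the gene called under every treatment. KDM3A, a histone demethylase induced by HIF1A, had 7 and 3 T>C reads in the controls and 37 and 22 with SRPIN340, 35 and 28 with Endovion, 45 and 30 with THZ531, and 47 and 29 with the combination. All treated libraries were above both controls. Its nascent log2 fold changes were 2.42 (SE 0.57, adjusted p = 0.015), 2.89 (SE 0.57, adjusted p = 0.00064), 3.04 (SE 0.56, adjusted p = 0.00015) and 3.24 (SE 0.56, adjusted p = 3.7e-05). With SRPIN340 no listed gene was called without control replicate 2 or without SRPIN340 replicate 1. The combination also raised DDIT4, a stress-induced inhibitor of mTORC1 signaling, by 2.39 (SE 0.37, adjusted p = 6.8e-06), and ADM, the vasodilator adrenomedullin, by 1.88 (SE 0.49, adjusted p = 0.0083). DDIT4 had 44 and 11 T>C reads in the controls against 148 and 76, and ADM 21 and 12 against 52 and 43. Of the 19 hypoxia genes tested in nascent RNA, SRPIN340, Endovion and THZ531 each raised 1 and the combination raised 3. Under every treatment 0 fell. Over all genes, 1.04%, 2.66%, 7.46% and 8.1% were called with SRPIN340, Endovion, THZ531 and the combination.

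Of 10 transcription factors of VEGF and PDGF promoters tested in nascent RNA, THZ531 and the combination each raised 2 and lowered 1. Over all genes, 7.46% and 8.1% were called with these treatments. SP1, a GC-box factor, had 32 and 20 T>C reads in the controls and 83 and 67 with THZ531, a log2 fold change of 1.72 (SE 0.40, adjusted p = 0.0029), and it had 44 and 62 with the combination. MAZ, a zinc finger factor, had 71 and 88 T>C reads in the controls and 180 and 119 with THZ531 (log2 fold change 1.04, SE 0.26, adjusted p = 0.0062). TFAP2A, which encodes AP-2 alpha, fell by 0.72 on the log2 scale (SE 0.16, adjusted p = 0.0011) with THZ531 and by 0.89 (SE 0.16, adjusted p = 5.1e-05) with the combination. It had 1304 and 1284 T>C reads in the controls, 850 and 570 with THZ531 and 487 and 607 with the combination. Without control replicate 2, no listed gene was called as lower with THZ531.

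**Figure D4:**
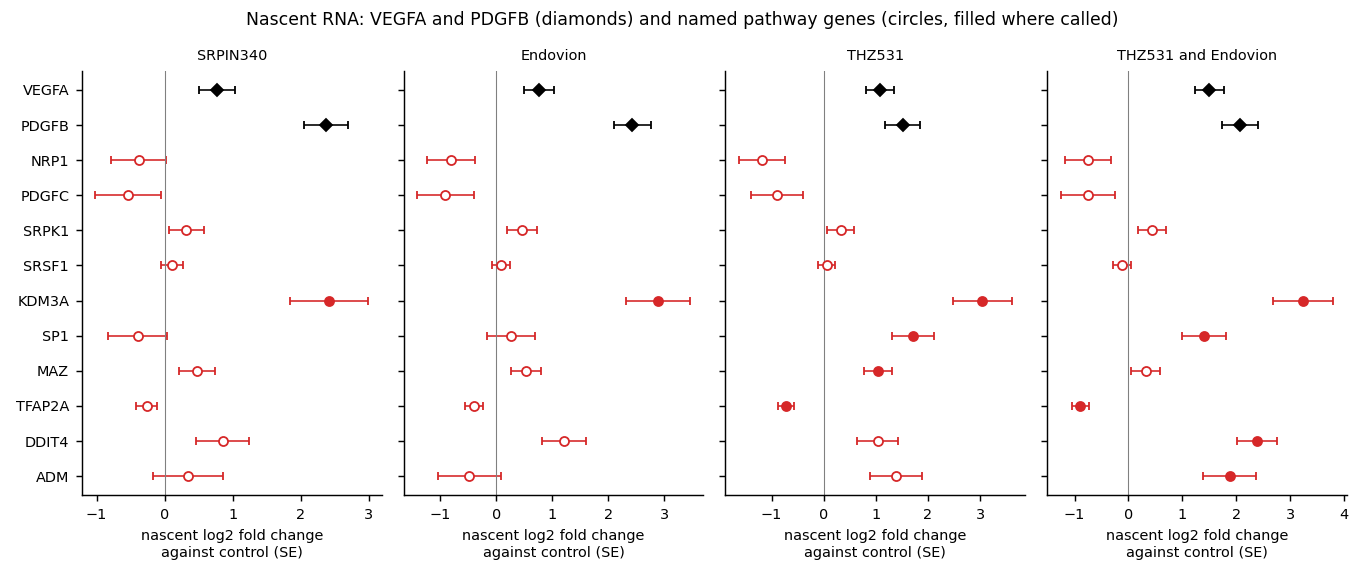
Nascent log2 fold change against control (points, with SE as whiskers) of VEGFA and PDGFB (black diamonds, no test) and of the pathway genes named by rule (red circles, filled where the edgeR adjusted p is under 0.05, open otherwise), for each treatment. KDM3A is called in all 4 panels, while NRP1, PDGFC, SRPK1 and SRSF1 are called in none.

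In total RNA 72 of the 91 pathway genes were tested. SRPIN340 raised 2 and lowered 0, Endovion raised 7 and lowered 4, THZ531 raised 20 and lowered 6, and the combination raised 19 and lowered 5. Over all 14690 genes, 1.96%, 11.4%, 30.7% and 29% were called in the same order, which is near the share of listed genes. Without control replicate 2, THZ531 and the combination each raised 11 and Endovion raised 2, and without THZ531 replicate 2, THZ531 raised 9. The 2 genes that SRPIN340 raised were KDM3A (1.47, SE 0.30, adjusted p = 0.042) and EGR1 (1.27, SE 0.24, adjusted p = 0.023), an immediate early transcription factor, and both were raised by the other treatments too. EGR1 is named here after its values had been seen. HIF1A itself fell by 0.59 (SE 0.10, adjusted p = 0.0036) with Endovion and by 0.42 (SE 0.10, adjusted p = 0.0061) with the combination, and was likewise named after its values had been seen.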

How the data were processed

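For 10 SLAM-seq libraries of 22RV1 cells the authors deposited SLAM-DUNK tables with counts per 3′ UTR interval, not normalized: covered T positions, conversions, reads and T>C reads. The submitters' processing notes name Bowtie2 2.3.4.1, SAMtools 1.6, DESeq2 1.38.2 and hg38. The SLAM-DUNK version and whether molecular identifiers were collapsed are not given in the sources used here. The exact intervals take every read as a separate molecule, and copies that were not collapsed would make them too narrow. In 96427 of 96427 intervals the listed number of T equalled that in hg38.

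Intervals were matched to GENCODE 44 (92910 of 96427). In each gene the most-read of overlapping intervals was kept, and 57437 intervals were summed to 31015 genes. The deposited counts were fitted over all 10 libraries with edgeR 4.0.16 in R 4.3.3 (TMM, filterByExpr, robust quasi-likelihood, group means, 5 residual degrees of freedom), which tested 9946 genes in nascent and 14690 in total RNA. The fit was also run on simulated counts with a single dispersion for all genes, which does not show how the calls behave in these libraries. Single shares carry exact (Clopper-Pearson) intervals at the 95% level.

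The members and gene lists were chosen with earlier results of these data known. Named were the ligands, receptors, SRPK1 and SRSF1 that passed the filter, at most 3 other listed genes per direction and treatment with an adjusted p under 0.05 in nascent RNA and 20 T>C reads in each library of the higher group, and the 3 genes most like each ligand. The comparison of 3′ ends was chosen after the counts had been seen. The alternatives tried were size factors and the test of DESeq2 1.42.0, no low-count filter, a plain sum of intervals, library sizes from all reads, fewer libraries, a replicate block and leaving out each library.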

Additional observations from a re-analysis of the deposited data

Results flagged for a closer look

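Total PDGFB was flagged because the libraries with THZ531 lay on opposite sides of their reference groups without and with Endovion. Both THZ531 libraries (34.1 and 63.7 CPM) lay above both control libraries (14.7 and 13.6 CPM), whereas both libraries of THZ531 with Endovion (48.0 and 76.2 CPM) lay below both Endovion libraries (107 and 89.9 CPM). On the log2 scale the fold changes were 1.78 (SE 0.52) for THZ531 against control and -0.67 (SE 0.49) for the combination against Endovion, and the difference of the 2 effects was -2.45 (SE 0.71). Most of this difference is the value of THZ531 alone, and the value below Endovion is little larger than its standard error. This difference was not tested, since PDGFB was chosen on such values. How many of all genes show such a pattern was not counted, and nothing is read from it. In nascent RNA the Endovion libraries (107 and 96.2 CPM) and the combination libraries (56.8 and 102 CPM) overlapped.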

How the results depend on the processing

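VEGFA and PDGFB were higher than control in nascent and total RNA under every alternative run, all 4 treatments included. The plain sum of overlapping intervals, in which the proximal PDGFB reads count more than once, gave nascent log2 fold changes of 2.004 for PDGFB with Endovion and 1.07 with THZ531, and of 0.92 and 1.34 for VEGFA with THZ531 and with the combination. Leaving out one library gave, for SRPIN340, Endovion, THZ531 and the combination, 0.33 to 1.12, 0.48 to 0.98, 1.05 to 1.13 and 1.46 to 1.55 for nascent VEGFA, and 1.89 to 2.72, 2.22 to 2.74, 1.30 to 1.82 and 1.59 to 2.44 for nascent PDGFB. Total VEGFA ranged, in the same order, over 0.43 to 0.99, 0.39 to 0.95, 0.71 to 1.27 and 0.89 to 1.45 when 1 library was left out. Counted as conversions per covered T, the log2 ratio of the VEGFA share to control was -0.64 with Endovion and -0.62 with THZ531, beside -0.11 and 0.04 for T>C reads.

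The counts of called pathway genes were less firm. In nascent RNA, leaving out one library gave 0 to 3 raised genes with SRPIN340, 1 to 3 with Endovion, 1 to 4 with THZ531 and 2 to 5 with the combination, and 0 to 2 lowered with THZ531. No low-count filter gave 2 raised genes with SRPIN340 and 2 with Endovion, the plain sum 0 raised with SRPIN340, 2 raised with the combination and 0 lowered with THZ531, and the treatment and control libraries alone 0 raised with SRPIN340. In total RNA, leaving out one library gave 0 to 9 raised and 0 to 4 lowered with SRPIN340, 2 to 10 and 1 to 6 with Endovion, 9 to 20 and 2 to 6 with THZ531, and 11 to 19 and 1 to 7 with the combination. The lowest raised counts came without control replicate 2 or Endovion replicate 1 for Endovion (2), without control replicate 2 for the combination (11), and without THZ531 replicate 2 for THZ531 (9). With SRPIN340, DESeq2 called 4 raised and 4 lowered, no filter 6 and 4, and the plain sum and the 4 libraries alone 0 raised. The plain sum gave 3 lowered with THZ531 and 3 with the combination.

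With the replicate number as a block (replicate block), nascent SRPIN340 and Endovion raised 2 and 3 listed genes, and total SRPIN340 raised 1. The block moved nascent PDGFB from 2.37 to 2.32 with SRPIN340. The numbers are not known to pair the samples: the deviations of same-numbered libraries correlated between -0.071 and 0.062 in nascent and between -0.15 and 0.20 in total RNA over 10 pairs of groups. The cause of these changes was not tested. Depth limits PDGFA and VEGFB, which had too few T>C reads for a nascent fold change.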
